A study of Mus musculus with 6 samples.

Results

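Perineuronal nets and the looser matrix between brain cells were followed here through 9 genes: the lecticans Acan, Bcan, Ncan and Vcan, the link proteins Hapln1, Hapln2 and Hapln4, and the tenascins Tnr and Tnc. They were taken by gene symbol from a list of lecticans, link proteins and tenascins of the cerebellar matrix. The rule used no measured value, but the list was chosen with earlier results of these data known. All 9 were found among the 24537 genes of each file. RNA-seq had been done on cerebellum from males aged 6 weeks, with 3 libraries of wild-type mice (WT, strain label C57BL/6) and 3 of mice labelled heterozygous for Reln (HET, strain label Orl/BalbC), whose allele the design text calls null. Strain label and genotype differed together in every library, so their parts in any difference cannot be told apart. Nothing in the labels tells whether separate animals gave these libraries, so p-values measure only the spread between them, which may be technical.

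Lecticans are chondroitin sulfate proteoglycans that bind the long sugar hyaluronan at one end and tenascins at the other. Link proteins clamp a lectican to hyaluronan, and tenascin-R, which forms trimers, ties several lecticans together. Condensed around the cell body and dendrites of certain neurons, these parts make a perineuronal net, which in the cerebellum is best known around the large neurons of the cerebellar nuclei. Reelin, the product of Reln, is itself a secreted protein of the extracellular space.

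Reln stood at 0.834, 0.771 and 0.940 FPKM (fragments scaled to exon length and library size, the unit of the deposited values) in WT replicates 1, 2 and 3, and at 0.531, 0.509 and 0.580 FPKM in HET replicates 1, 2 and 3, so its groups did not overlap. Low values fell in steps of whole reads that gave an approximate depth of 22850000 to 28580000 reads per library. Markers of the labelled tissue were present, Gabra6 of granule cells at 53.7 to 68.4 FPKM and Pcp2 of Purkinje cells at 121.9 to 174.6 FPKM. Of 15 genes of the neighbouring brainstem, 12 were listed at 0 in at least 1 library, and the 15 summed to 0.207 to 0.568 FPKM. Libraries stood apart in 2 ways. WT replicate 2 was the lowest library for 78.4% of the 6358 genes that averaged 1 FPKM or more. Choroid plexus markers differed within both groups: the 11 markers summed to 308.7, 2.43 and 170.6 FPKM in WT replicates 1, 2 and 3 and to 6.19, 177.7 and 9.95 FPKM in HET replicates 1, 2 and 3, and Folr1 among them was listed at 0 in at least 1 library.

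The lecticans Bcan, Ncan and Vcan each lie beside a link protein gene of the same set in the mouse genome (mm10, GENCODE M21). Bcan (chromosome 3, 87987531 to 88000230) and Hapln2 (88021750 to 88027583) are both on the minus strand, 21.5 kb apart. Ncan (chromosome 8, 70093085 to 70120873, minus strand) and Hapln4 (70083457 to 70090862, plus strand) run towards each other with 2222 bases between them. Vcan (chromosome 13, 89655312 to 89742509, minus strand) and Hapln1 (89539796 to 89611652, plus strand) also converge, 43.7 kb apart. No protein-coding gene lies in any of these gaps. Acan (chromosome 7, 79053483 to 79115099, plus strand) lies beside Hapln3, a link protein gene outside the set, and these also converge, with 2 bases between them. Tnr is on chromosome 1 (159523769 to 159931729, plus strand) and Tnc on chromosome 4 (63959785 to 64047015, minus strand). Genes annotated on the opposite strand overlap Vcan (Gm16318 and Gm4117), Hapln1 (Gm8546), Tnr (Gm38039) and Tnc (8030451A03Rik). The strand setting of the quantification is not given in the sources used here, so reads of these partners could not be told from those of the member.

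The 250 bases before the RefSeq start (GRCm38.p6) of the most abundant lecticans, Bcan and Ncan, and of the least abundant, Acan, are shown 5′ to 3′ on the gene's strand, because these genes span the range of levels within one family. Capitals mark matches, on either strand, to GGGCGG (the GC box), CCAAT (the CCAAT box) and TATAAA (the core of the TATA box). The windows are chr3:88000357-88000606 (minus strand) for Bcan, chr8:70120845-70121094 (minus strand) for Ncan and chr7:79052976-79053225 (plus strand) for Acan.
Bcan: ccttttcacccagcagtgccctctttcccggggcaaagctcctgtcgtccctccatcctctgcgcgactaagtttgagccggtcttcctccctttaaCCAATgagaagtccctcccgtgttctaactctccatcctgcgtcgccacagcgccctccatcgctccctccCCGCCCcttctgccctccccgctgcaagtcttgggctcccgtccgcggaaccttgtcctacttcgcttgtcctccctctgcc
Ncan: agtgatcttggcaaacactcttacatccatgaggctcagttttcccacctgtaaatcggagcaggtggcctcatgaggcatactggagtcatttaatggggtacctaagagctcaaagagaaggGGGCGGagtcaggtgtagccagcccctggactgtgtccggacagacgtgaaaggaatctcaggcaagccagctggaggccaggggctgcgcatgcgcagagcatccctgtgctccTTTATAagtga
Acan: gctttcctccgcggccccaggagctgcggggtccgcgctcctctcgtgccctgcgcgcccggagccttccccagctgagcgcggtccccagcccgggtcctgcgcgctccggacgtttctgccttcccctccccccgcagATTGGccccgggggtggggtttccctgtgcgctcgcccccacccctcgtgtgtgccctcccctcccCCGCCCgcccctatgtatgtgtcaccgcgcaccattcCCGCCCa
The Bcan window held 1 CCAAT on its own strand and 1 GC box on the other, and the Ncan window 1 GC box on its own strand and 1 TATAAA on the other. The Acan window held 2 GC boxes and 1 CCAAT, all on the other strand. None of the marked matches overlapped another. Of 32851 RefSeq promoter windows of this length, 32.7% held a GC box, 33.8% a CCAAT and 12.4% a TATAAA. CpG dinucleotides numbered 26 in Acan, 16 in Bcan and 6 in Ncan, against a median of 6.0 over all windows, so the lectican with the lowest level had the window richest in CpG of these 3. Such matches describe the letters in the window only. An entry was found for 8 of the 9 members, all but Hapln4.

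Bcan, which encodes brevican, a lectican made mainly by glia of the adult brain, was the lectican with the highest level. Its level was 7.17, 5.18 and 6.04 FPKM in WT replicates 1, 2 and 3, and 6.06, 7.20 and 5.77 FPKM in HET replicates 1, 2 and 3. WT replicate 2 was lowest and HET replicate 2 highest, and the groups overlapped. Ncan, the gene of neurocan, a lectican best known from the developing brain, stood at 1.06, 0.707 and 1.07 FPKM in WT and at 0.838, 1.13 and 0.877 FPKM in HET cerebellum. The same libraries were at the ends, and both groups spanned nearly the same range. Vcan encodes versican, whose splice forms occur in many tissues and in brain white matter. It was at 0.525, 0.466 and 0.473 FPKM in WT and 0.467, 0.508 and 0.476 FPKM in HET libraries, with the smallest relative spread of the 9 genes (coefficient of variation 5.05% over the 6 libraries). Counting error alone was 7.35% to 8.6% for Vcan at its approximate 135 to 185 reads, so its spread lay within that error. Acan encodes aggrecan, the lectican most often used to stain perineuronal nets. Its level was 0.0297, 0.00906 and 0.0284 FPKM in WT and 0.0239, 0.0252 and 0.0376 FPKM in HET libraries. These values correspond to about 6.2, 1.8 and 6.0 reads in WT and 4.4, 5.0 and 6.3 reads in HET libraries. The 95% Poisson interval of the lowest, 0.2 to 6.9 reads, took in the read number of every other library, without adjustment for unlike depth. With so few reads, a difference in Acan between the groups could not be judged. Read numbers here use the longest annotated transcript and are approximate, and the intervals cover counting error only.

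Hapln4, also called Bral2, encodes the brain link protein known from perineuronal nets and inhibitory synapses of cerebellum and brainstem, and it had the highest level of all 9 members. It stood at 10.99, 7.11 and 10.5 FPKM in WT and 8.72, 10.6 and 10.6 FPKM in HET libraries. WT replicate 2 and HET replicate 1 were the low libraries, and the other 4 lay between 10.5 and 10.99 FPKM. Hapln2, also called Bral1, encodes the link protein of the nodes of Ranvier on myelinated axons. Its level was 3.15, 2.07 and 2.15 FPKM in WT and 2.29, 2.55 and 2.15 FPKM in HET libraries. WT replicate 1 stood above the other 5 libraries. Hapln1, the link protein first described in cartilage and also found in nets, was near the limit of detection at 0.0564, 0.0350 and 0.0668 FPKM in WT and 0.0592, 0.0508 and 0.0558 FPKM in HET libraries. That is about 5.3 to 10.9 reads, with a counting error of 30.3% to 43.3%, larger than its coefficient of variation of 19.8%.

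Tnc encodes tenascin-C, a glycoprotein of developing brain and of astroglia including Bergmann glia, and was the higher of the tenascins. It was at 0.460, 0.371 and 0.667 FPKM in WT and 0.448, 0.565 and 0.461 FPKM in HET libraries. WT replicates 2 and 3 were the lowest and the highest of all 6, so the WT group enclosed the HET one. Tnr, the gene of tenascin-R, the cross-linker of nets made by oligodendrocytes and some neurons, stood at 0.150, 0.108 and 0.148 FPKM in WT and 0.116, 0.154 and 0.142 FPKM in HET libraries. Its approximate 35.1 to 52.0 reads gave a counting error of 13.9% to 16.9%, about as large as its coefficient of variation of 14.2%.

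**Figure D1:**
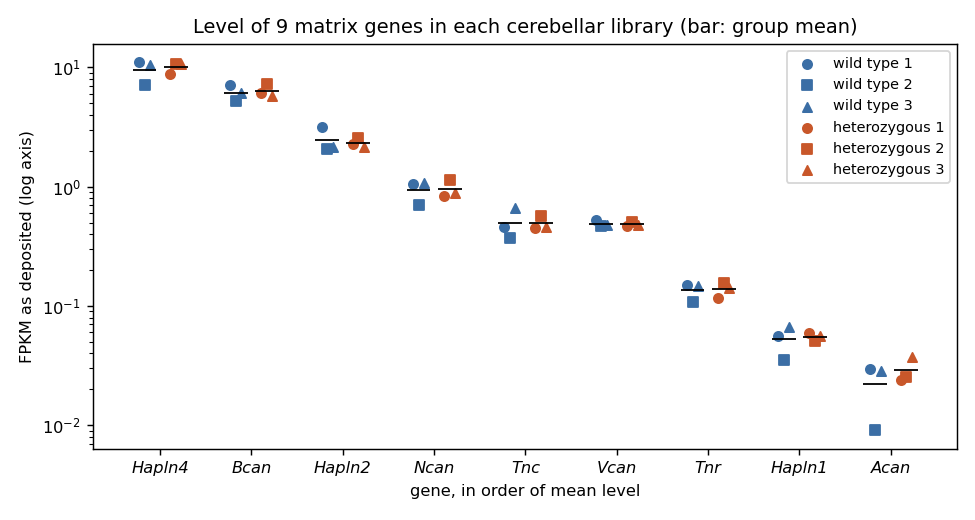
FPKM of the 9 genes (log axis) in each of 3 WT (blue) and 3 HET (orange) libraries, with marker shape giving the replicate number and bars the group means. Levels run from about 10 FPKM for Hapln4 to below 0.04 FPKM for Acan, and the groups overlap for each gene.

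FPKM is per length, so the members can be set in order of level. The order by the mean of 6 libraries was Hapln4 (9.75 FPKM), Bcan (6.24), Hapln2 (2.39), Ncan (0.946), Tnc (0.495), Vcan (0.486), Tnr (0.136), Hapln1 (0.0540) and Acan (0.0256). In 7 of the 8 neighbouring pairs the order was the same in 6 of 6 libraries. For these 7 the two-sided exact sign-flip permutation p was 0.0312, the smallest that 6 libraries allow, and 0.0357 with Benjamini-Hochberg adjustment over the 8 pairs. The pairs were formed from the means of these same libraries, so the p-values add no independent support for the order. Tnc and Vcan were the pair without one order. Tnc was the higher of that pair in 2 of 6 libraries (geometric mean ratio 1.0, range 0.796 to 1.41, exact p = 1.0), so their levels did not differ beyond their spread. Hapln4 exceeded Bcan 1.56-fold (range 1.37 to 1.83), and Hapln1 exceeded Acan 2.25-fold (range 1.49 to 3.87).

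Within each class a single gene made up most of the summed FPKM. Bcan made up 79.4% to 82.0% of the lectican sum, Hapln4 77.1% to 82.7% of the link protein sum and Tnc 75.4% to 81.9% of the tenascin sum over the 6 libraries. The groups were then compared on these shares. Bcan took 80.8% ± 1.3 of the lectican sum in WT and 81.3% ± 0.7 in HET libraries (SD, n = 3 each). Hapln4 took 79.0% ± 3.1 and 80.6% ± 2.0 of the link protein sum, and the link protein sum was 1.58 ± 0.12 and 1.59 ± 0.16 times the lectican sum. These differences were all smaller than 1 SD of either group. Ncan came second among the lecticans, with 11.1% to 14.0% of their sum, and Hapln2 second among the link proteins, with 16.9% to 22.5%.

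All 9 members had their lowest FPKM in WT replicate 2, as did 78.4% of the tested genes. Relative to the median of the other 5 libraries, that library held 0.319 of Acan, 0.621 of Hapln1, 0.670 of Ncan, 0.674 of Hapln4, 0.730 of Tnr, 0.805 of Tnc, 0.856 of Bcan, 0.904 of Hapln2 and 0.977 of Vcan. The median of all genes tested was 0.813, so the members lay on both sides of it. Libraries were therefore also put on a common scale by median-of-ratios factors, which ranged from 0.840 for WT replicate 2 to 1.14 for HET replicate 2. On that scale the coefficient of variation of Bcan over the 6 libraries went from 12.8% to 4.38%, close to its counting error of 3.95% to 4.91%. That of Hapln4 went from 15.5% to 10.4%, of Hapln2 from 16.9% to 11.8%, of Ncan from 17.4% to 11.0% and of Tnr from 14.2% to 9.28%. Vcan went the other way, from 5.05% to 7.55%, and its highest library became WT replicate 2. Hapln4 kept a spread above its counting error of 2.96% to 3.8%, with scaled values from 8.47 in WT replicate 2 to 10.8 in WT replicate 3.

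**Figure D2:**
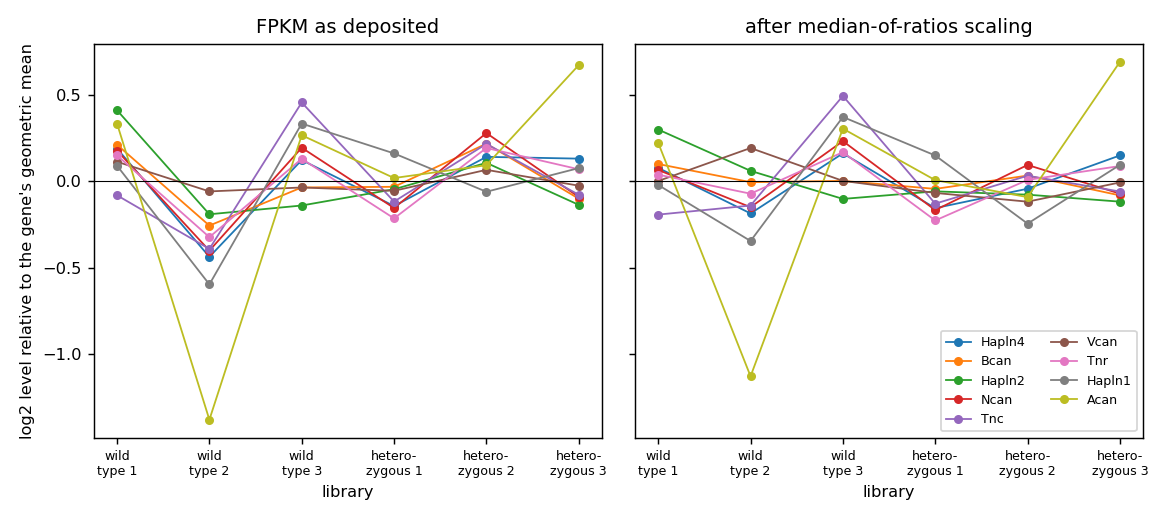
Log2 level of each gene relative to its geometric mean over the 6 libraries, for FPKM as deposited (left) and after median-of-ratios scaling (right), with libraries on the horizontal axis. Every line has its low point at WT replicate 2 on the left, and on the right the Bcan line is nearly flat while Acan, with 1.8 to 6.3 reads, swings most.

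The 3 libraries with the highest Ncan, WT replicates 1 and 3 and HET replicate 2, were also those with the choroid plexus sums of 170.6 to 308.7 FPKM. Ncan was at 1.06 to 1.13 FPKM there and at 0.707 to 0.877 FPKM in the other 3, and after scaling the same 3 libraries were still highest (0.977 to 1.10 against 0.832 to 0.889). Tnr showed the same division as deposited (0.148 to 0.154 against 0.108 to 0.142 FPKM) but not after scaling. The division was not a planned comparison, and the share of all genes that show it was not computed. As deposited the matrix protease gene Adamts1 also showed it (3.96 to 4.80 against 2.89 to 3.79 FPKM), while Itgb1 did not. The part of adjacent tissue in the Ncan and Tnr values was not tested. Both groups held libraries of each kind, 2 of the 3 in WT and 1 in HET cerebellum.

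The main comparison asked whether matrix genes differed between Reln HET and WT cerebellum. None of the members showed a difference beyond the spread between libraries. The groups overlapped for all 9 genes as deposited, where 6.23% of the 15942 genes above 0 in all libraries did not overlap. In whole tissue, fewer cells of a type and less RNA per cell cannot be told apart. Of the 9 members, 3 had a mean of at least 1 FPKM and entered the limma test on log2(FPKM + 1) over 6358 genes. None of these 3 passed an adjusted p of 0.05 or had an unadjusted p under 0.05, against 0.0786% of all genes tested that passed (5 genes). That total depended on the settings tried, from 0 to 67 genes, and was 62 without WT replicate 1, while the members past the test numbered 0 under each of them.

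Bcan averaged 6.13 ± 1.00 FPKM in WT and 6.34 ± 0.75 FPKM in HET cerebellum (SD, n = 3 each), a log2 difference (HET minus WT) of 0.047 with a 95% interval of -0.235 to 0.329 (limma adjusted p = 0.94). Hapln4 averaged 9.53 ± 2.11 and 9.97 ± 1.08 FPKM, a difference of 0.075 with an interval of -0.233 to 0.383 (limma adjusted p = 0.92). Hapln2 averaged 2.46 ± 0.60 and 2.33 ± 0.20 FPKM, a difference of -0.041 with an interval of -0.282 to 0.200 (limma adjusted p = 0.94). All 3 values lay below the median of all genes tested, 0.083. After median-of-ratios scaling that median was -0.0014, and the signs of Bcan and Hapln4 turned, to -0.0545 (interval -0.182 to 0.073) and -0.0308 (interval -0.269 to 0.207). Hapln2 was then at -0.122 (interval -0.295 to 0.051, limma adjusted p = 0.78). The intervals thus leave room for differences in either direction, and the fit borrowed most of its spread from other genes of like level (54.4 prior against 4 residual degrees of freedom).

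**Figure D3:**
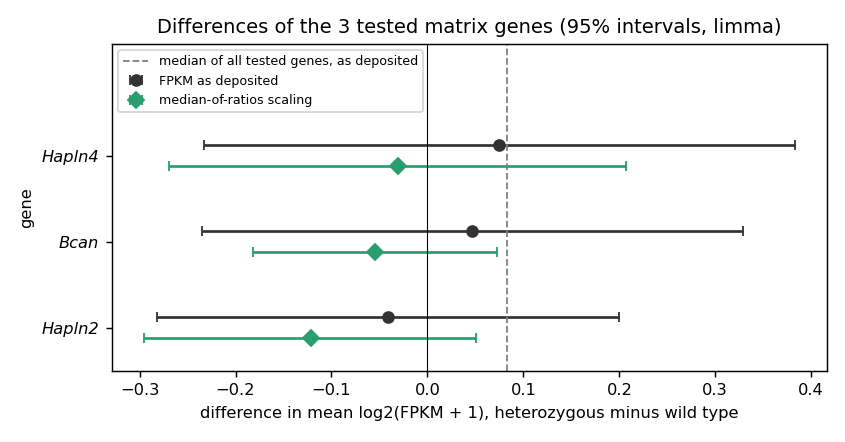
Difference in mean log2(FPKM + 1), HET minus WT, of the 3 tested genes with 95% intervals from limma, as deposited (black) and after median-of-ratios scaling (green). Each interval includes 0, and the dashed line marks the median of all tested genes, 0.083.

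The other 6 members lay under the minimum of 1 FPKM and were compared by exact permutation (two-sided), for which 0.1 is the smallest p with 3 libraries a group. Ncan was just under that minimum, at 0.943 ± 0.205 FPKM in WT and 0.949 ± 0.160 FPKM in HET cerebellum (SD, n = 3 each, exact permutation p = 1.0), a ratio of 1.01. With the minimum lowered to 0.5 FPKM its limma adjusted p was 0.99 and its interval -0.179 to 0.192. Vcan averaged 0.488 ± 0.032 and 0.484 ± 0.021 FPKM (ratio 0.992, exact permutation p = 0.9). After median-of-ratios scaling Vcan was the only 1 of the 9 members whose groups did not overlap, at 0.509 ± 0.040 in WT and 0.464 ± 0.018 in HET libraries (SD, n = 3 each). The gap was small, with 0.483 the highest HET and 0.486 the lowest WT value, and 9.97% of all genes above 0 in all libraries did not overlap on that scale. Tnc averaged 0.499 ± 0.152 and 0.491 ± 0.064 FPKM (ratio 0.984, exact permutation p = 1.0), and Tnr 0.135 ± 0.024 and 0.138 ± 0.019 FPKM (ratio 1.02, exact permutation p = 0.8). The ratio was 1.05 for Hapln1 (exact permutation p = 0.9) and 1.29 for Acan (exact permutation p = 0.6), the latter resting on 1.8 to 6.3 reads. In a limma fit with no minimum, which took in all 9, the smallest unadjusted p was 0.416, for Acan.

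Ratios of partner genes within a library do not depend on how libraries are scaled, and 4 were compared: 3 of the 4 neighbouring lectican and link protein pairs, and the 2 tenascins. Acan to Hapln3 was not compared. The ratio of Bcan to Hapln2 was 2.28, 2.50 and 2.81 in WT replicates 1, 2 and 3 and 2.64, 2.82 and 2.68 in HET replicates 1, 2 and 3. The groups overlapped, and the log2 difference was 0.11 (two-sided exact permutation p = 0.3, adjusted over the 4 ratios 1.0). Without WT replicate 1 it was 0.034, and without WT replicate 3 it was 0.19. Ncan to Hapln4 was nearly constant in WT, at 0.0961, 0.0993 and 0.102, and stood at 0.0961, 0.107 and 0.0831 in HET libraries (log2 difference -0.064, exact permutation p = 0.8). Vcan to Hapln1 varied most, from 7.08 to 13.3 in WT and from 7.88 to 9.997 in HET libraries (log2 difference -0.13, exact permutation p = 0.8), with few reads of Hapln1 behind it. Tnr to Tnc was 0.326, 0.291 and 0.222 in WT and 0.260, 0.273 and 0.308 in HET libraries (log2 difference 0.018, exact permutation p = 1.0). The direction of the last 3 ratios turned when 1 library was left out: Ncan to Hapln4 to 0.031 without HET replicate 3, Vcan to Hapln1 to 0.11 without WT replicate 2, and Tnr to Tnc to -0.14 without WT replicate 3 and -0.052 without HET replicate 3.

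**Figure D4:**
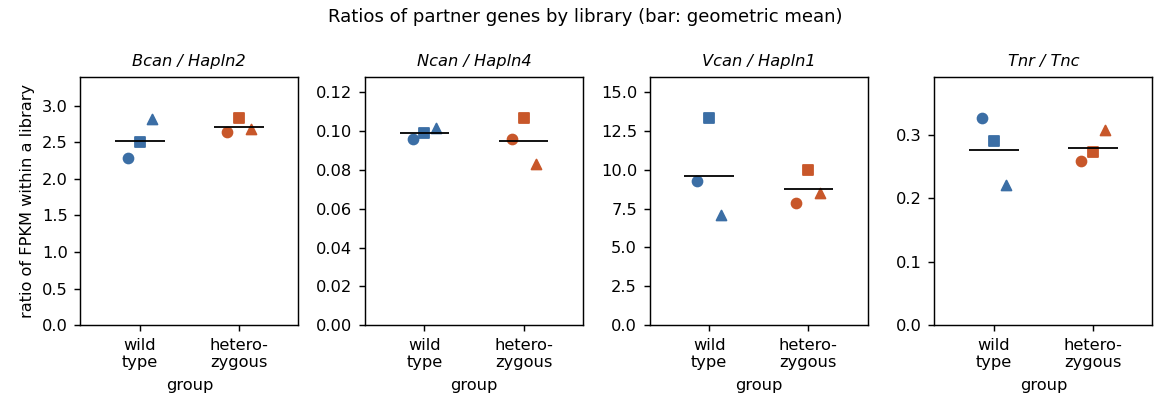
Ratio of FPKM of partner genes within each library (linear axes from 0), WT in blue and HET in orange, with bars for geometric means. The groups overlap in all 4 panels.

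The other genes of the pathway were counted in lists of what makes, sulfates, cuts and binds the matrix. None of their tested members passed the test, over all genes. Of 26 genes of chondroitin sulfate synthesis 12 were tested, 11 with a higher and 1 with a lower mean in HET libraries and a median of 0.111, against 83.1% higher and a median of 0.083 over all genes tested. On the median-of-ratios scale 49.1% of all genes were higher and the median of the list was 0.046. Slc35b2, which carries the sulfate donor into the Golgi, had the largest value, 0.27 (SE 0.14, limma adjusted p = 0.90), and the linker enzyme gene B3gat3 the highest level, 10.4 ± 1.4 FPKM in WT and 11.2 ± 1.0 FPKM in HET cerebellum (SD, n = 3 each). Of 22 proteases and inhibitors 9 were tested, all 9 with a higher mean log2(FPKM + 1) in HET libraries as deposited. Their median difference of 0.051 turned to -0.023 after scaling. Timp4, an inhibitor of metalloproteinases, was the most abundant, at 15.1 ± 2.6 and 17.3 ± 2.7 FPKM (SD, n = 3 each, limma adjusted p = 0.90), and the protease gene Ctss stood at 0.924 ± 0.247 and 1.12 ± 0.19 FPKM.

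Of 19 receptors and ligands of the matrix 8 were tested, 6 with a higher and 2 with a lower mean and a median of 0.058 (-0.014 after scaling). Among them Cntn1, the axonal contactin that binds tenascin-R, was at 1.80 ± 0.37 and 1.99 ± 0.22 FPKM, Sdc3, the proteoglycan syndecan-3, at 3.82 ± 0.77 and 4.20 ± 0.50 FPKM, and Cntn2, the most abundant, at 6.04 ± 0.57 and 5.82 ± 0.51 FPKM (SD, n = 3 each). Of 35 other matrix proteins 9 were tested, 8 higher and 1 lower with a median of 0.116 (0.027 after scaling), and 1 had an unadjusted p under 0.05, against 3.33% of all genes tested (212 of 6358). Fmod, the small leucine-rich proteoglycan fibromodulin, had the largest value (0.28, SE 0.11, limma adjusted p = 0.90), and its groups overlapped. The secreted glycoprotein gene Sparcl1 was the most abundant at 76.4 ± 19.3 and 81.2 ± 7.1 FPKM. Of 14 genes of hyaluronan metabolism and its receptors only the hyaluronidases Hyal1 (-0.064) and Hyal2 (0.068) were tested. In these 5 lists, the groups of 0 tested genes were apart, against 5.55% of all tested genes.

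**Figure D5:**
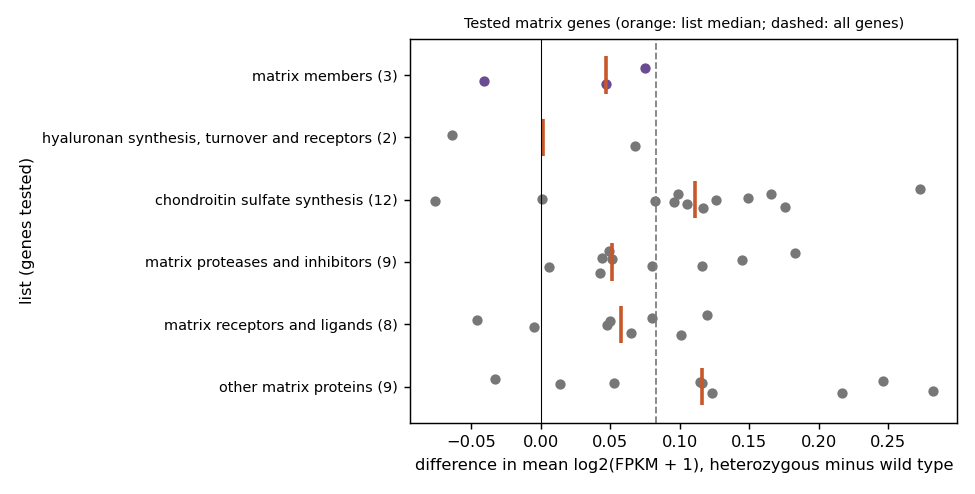
Difference in mean log2(FPKM + 1), HET minus WT, of each tested gene of the 9 members (purple) and of 5 lists of partner genes (grey), with list medians in orange. The medians lie between 0.002 and 0.116, on both sides of the dashed line at 0.083, the median of all genes.

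Genes with profiles most like those of the most abundant member of each class were found by the root mean square difference of log2(FPKM + 1), each gene centred on its mean over the 6 libraries. Those closest to Bcan were Itgb1 (0.0153), Arsa (0.0189) and Ficd (0.0207), those closest to Hapln4 were Lrrc58 (0.0101), Kctd12 (0.0285) and Fam122a (0.0288), and those closest to Tnc were Pianp (0.0213), Fam57b (0.0267) and Ubr4 (0.0285). The profiles share the dip of WT replicate 2 that most genes show, so such closeness is a description of these libraries. The pseudocount of 1 also shrinks changes at low levels. Genes of unlike mean level, such as Bcan (6.24 FPKM) and Itgb1 (1.51 FPKM), can thus be close without equal relative changes.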

How the data were processed

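Gene expression was measured in 6 libraries, grouped by sample title. Per the labels' protocols, the authors filtered out mitochondrial and ribosomal sequences, trimmed 2 bases and aligned to mm10 with TopHat2 and Bowtie. They deposited FPKM from Cufflinks. The labels also name Cuffdiff 2.1.1. The sources used here give no version for the other tools and no annotation release. FPKM is scaled to library size, so abundant RNAs can shift other genes. In HET replicate 2, 40 values read as dates and were left out.

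Genes averaging 1 FPKM or more were tested on log2(FPKM + 1) with limma 3.58.1 (R 4.3.3, trend, Benjamini-Hochberg, adjusted p under 0.05), which was tested on simulated data. Ratios and members under 1 FPKM had exact permutation tests (scipy 1.17.1, Python 3.11.15). Depth came from value steps in 4052 single-transcript genes of GENCODE M21 (lengths over 600 bases, steps matched within 1%), without effective lengths. Alternatives were pseudocount, minimum, scaling, variance model, replicate block and left-out libraries. Members, lists and tests were chosen with earlier results of these data known. The text names all members and, per list, genes past the test or up to 2 with the largest differences and the most abundant. Genes named beside the choroid plexus sums were picked as examples. Planned quantile normalization was applied to tested members only.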

Additional observations from a re-analysis of the deposited data

How the results depend on the processing

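The number of members past the test stayed at 0 in limma under every alternative, with 0 at an unadjusted p under 0.05 and 3 to 9 members tested. For the order of levels the alternatives were 1 group alone, the median, or 1 library left out. The 7 of 8 neighbouring pairs with one order in all 6 libraries must keep it under each of these. The alternatives were therefore no test of that order. The count over all genes, 5, was 9 with no minimum, 0 with a minimum of 0.5 FPKM, after median-of-ratios scaling, after quantile normalization or with no intensity trend (230, 325, 347 and 203 genes at an unadjusted p under 0.05, in that order), 1 after rescaling to the same sum, and 67 without WT replicate 2 and HET replicate 2 together, an alternative added after seeing the data. Leaving out 1 library gave 5 to 62 genes, the most without WT replicate 1. The cause of these changes was not tested. With the replicate number as a block 13 genes passed. Deviations of same-numbered libraries correlated at -0.281, -0.517 and 0.14. Of the libraries of the other group, the one with the same number was closest for 0 of 6 libraries. These values showed no pairing by number, but they carry library-wide shifts and cannot tell how the libraries were prepared. For the 4 partner ratios the block leaves the mean difference as it is by construction (0.107, -0.0635, -0.1275 and 0.0177); the exact permutation p with it was 0.5, 1.0, 0.75 and 1.0, against 0.3, 0.8, 0.8 and 1.0 without.

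The difference of Bcan, 0.0467, turned to -0.0545 with median-of-ratios scaling, -0.0539 with quantile normalization, -0.0739 after rescaling to the same sum (which moved the median of all genes by 0.1) and -0.1335 without both replicates 2; leaving out 1 library gave -0.0515 to 0.1494. That of Hapln4, 0.0748, turned to -0.0308, -0.0339, -0.0526 and -0.1472 under the same 4, with -0.1026 to 0.1787 when 1 library was left out. That of Hapln2, -0.041, was -0.1652 without both replicates 2 and ranged from -0.1188 to 0.0974 when 1 library was left out. Leaving out 1 library gave 0.034 to 0.1861 for Bcan to Hapln2, -0.1482 to 0.0314 for Ncan to Hapln4, -0.3444 to 0.1097 for Vcan to Hapln1 and -0.1408 to 0.1377 for Tnr to Tnc. Depth limits Acan and Hapln1, at about 1.8 to 10.9 reads.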

Other observations

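Hapln2, the nodal link protein gene, was set against markers of myelin, and Bcan, Ncan and Tnc against markers of astrocytes, as relations chosen after the values were seen. Of 14 markers of myelinating oligodendrocytes 10 were tested, all 10 with a higher mean in HET libraries (median 0.264, and 0.16 after median-of-ratios scaling, none past the test), among them Mal (7.36 ± 1.31 and 9.47 ± 0.62 FPKM in WT and HET cerebellum; SD, n = 3 each) and Mag (9.19 ± 2.02 and 11.3 ± 1.9 FPKM). As a percentage of the summed FPKM of the 14 markers, Hapln2 was 1.26%, 1.32% and 1.14% in WT replicates 1, 2 and 3 and 1.11%, 0.923% and 0.948% in HET replicates 1, 2 and 3. The log2 difference was -0.32, and the groups did not overlap, which held for 7.83% of the 6358 tested genes on the same base. The two-sided exact permutation p was 0.1, the smallest that 3 against 3 libraries allow, and 0.2 adjusted over the 4 such relations computed, so it did not pass. With the geometric mean of the 10 tested markers as the base the difference was -0.34 and the groups did not overlap, as for 15.0% of the tested genes.

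The 14 markers of astrocytes and Bergmann glia were all tested and all had a higher mean as deposited (median 0.168, and 0.066 after scaling, none past the test). Set against their sum, Bcan was 1.06%, 1.11% and 1.08% in WT and 0.938%, 1.03% and 0.946% in HET libraries, a log2 difference of -0.16 that did not pass (exact permutation p = 0.1, adjusted 0.2). These groups did not overlap either, as for 15.0% of the tested genes on that base, and the summed markers themselves ran from 465.1 to 674.6 FPKM in WT and from 610.3 to 699.2 FPKM in HET libraries. Aldoc alone gave most of that sum, at 335.7 ± 60.8 FPKM in WT and 391.7 ± 20.8 FPKM in HET cerebellum (SD, n = 3 each). The sum therefore mainly follows that gene and is no measure of astrocyte content. Against the geometric mean of the 14 markers the difference was -0.12, without overlap, as for 5.49% of the tested genes. Ncan and Tnc overlapped between groups on both bases (exact permutation p = 0.3 and 0.7 against the sum).

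Of 12 genes of the cerebellar nuclei and of fast-spiking neurons, the cells most often wrapped in nets, 6 were tested, 4 with a higher and 2 with a lower mean, with a median of 0.096 (-0.010 after scaling). Pvalb, the calcium buffer parvalbumin, stood at 40.3 ± 4.3 and 45.0 ± 0.7 FPKM and Spp1, the gene of osteopontin, at 1.96 ± 0.93 and 2.34 ± 0.57 FPKM in WT and HET cerebellum (SD, n = 3 each), and neither passed the test.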
